A study of Mus musculus with 3 samples.

Results

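Open chromatin was mapped in cortical projection neurons sorted by FACS from mouse brain. The assay was ATAC-seq, where sequencing adapters are inserted by a transposase wherever DNA is accessible. One cell type was corticospinal motor neurons (CSMN), with 1 library, and the other was callosal projection neurons (CPN), with 2 libraries named CPN 1 and CPN 2 here. The labels give 50000 sorted cells for each library, and the sources used here do not give the age, sex, strain, genotype or sorting markers of the animals. The regions described are those that all 3 libraries share and that rank higher in CSMN than in both CPN libraries. The peaks of the 3 lists were merged where they overlapped by 1 bp, which gave 204313 regions, of which 62435 held a peak in every library. The highest fold enrichment of each library in a region was turned into a percentile, from 0 to 1, among these 62435 shared regions within that library. The 2975 regions whose CSMN percentile exceeded both CPN percentiles by at least 0.25 are called members, and they made up 4.76% of the shared regions. The members were chosen by the fold values of these same 3 libraries, so their percentiles, folds, q-values and peak widths are given as a description. Position in the genome and sequence were not used by the rule.

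CSMN are layer V neurons whose axons leave the cortex for the spinal cord and drive voluntary movement. CPN connect the hemispheres through the corpus callosum and lie mostly in the upper layers. The transcription factor Fezf2 specifies subcerebral neurons and acts in part through Bcl11b (Ctip2). Nr2f1 (COUP-TFI) patterns cortical areas and Tbr1 directs corticothalamic identity while repressing Fezf2. Accessible DNA away from gene starts includes enhancers, which differ between cell types more than promoters do. A peak at an enhancer or promoter shows that the DNA was accessible and does not by itself show transcription. In sorted bulk nuclei a larger share of cells with an open site and a site open more often in each cell cannot be told apart.

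Some members lay near microRNA hairpins, and 8 microRNAs are shown, because the study's title names a cluster of microRNAs that acts below Fezf2. The mature sequences are from RefSeq for GRCm38.p6, written 5′ to 3′ with bases 2 to 8, the seed that pairs with targets, in capitals. Mir137, Mir218-1, Mir9-2, Mir129-2, Mir99a and Mirlet7c-1 each had a member within 10 kb, and Mir193b and Mir365-1 had none. The first 6 were chosen after their values were seen, as microRNAs with known roles in neurons or in many tissues, and hairpins with closer members are named further on.
mmu-miR-137-3p: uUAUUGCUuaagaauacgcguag
mmu-miR-218-5p: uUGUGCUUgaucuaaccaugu
mmu-miR-9-5p: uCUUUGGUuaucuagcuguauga
mmu-miR-129-5p: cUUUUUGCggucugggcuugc
mmu-miR-99a-5p: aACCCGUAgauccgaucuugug
mmu-let-7c-5p: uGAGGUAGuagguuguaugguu
mmu-miR-193b-3p: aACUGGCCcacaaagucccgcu
mmu-miR-365-3p: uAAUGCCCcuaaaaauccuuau
Each of these 8 microRNAs has a seed of its own, so no pair of them forms a seed family.

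Of the promoters that overlapped members, 4 are shown, from one with several GC boxes to one with none. A GC box, GGGCGG or CCGCCC on the other strand, is the element that Sp1-type factors recognise. The 250 bases before each gene start are written 5′ to 3′ on the gene's strand, from RefSeq for GRCm38.p6, with GC boxes in capitals and counted without overlap. Cdk2ap1, whose product inhibits a cyclin-dependent kinase, has its window at chr5:124354629-124354878 on the minus strand. Serpine2, a secreted inhibitor of serine proteases, has its window at chr1:79858666-79858915 on the minus strand. Scn7a, a sodium channel family member that acts as a sodium sensor, has its window at chr2:66784911-66785160 on the minus strand and was chosen after its values were seen. Ckmt1, a mitochondrial creatine kinase gene, has its window at chr2:121358360-121358609 on the plus strand and was also chosen after its values were seen.
Cdk2ap1: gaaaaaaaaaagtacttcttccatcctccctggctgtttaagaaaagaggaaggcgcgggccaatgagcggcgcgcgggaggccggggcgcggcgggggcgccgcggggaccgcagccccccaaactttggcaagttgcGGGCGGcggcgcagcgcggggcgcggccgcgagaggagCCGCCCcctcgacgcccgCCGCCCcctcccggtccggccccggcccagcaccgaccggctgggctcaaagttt
Serpine2: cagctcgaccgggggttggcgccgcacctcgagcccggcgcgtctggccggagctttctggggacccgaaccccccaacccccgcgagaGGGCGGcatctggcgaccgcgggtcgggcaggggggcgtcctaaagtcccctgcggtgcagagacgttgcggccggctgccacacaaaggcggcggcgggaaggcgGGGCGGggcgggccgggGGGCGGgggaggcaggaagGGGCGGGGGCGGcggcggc
Scn7a: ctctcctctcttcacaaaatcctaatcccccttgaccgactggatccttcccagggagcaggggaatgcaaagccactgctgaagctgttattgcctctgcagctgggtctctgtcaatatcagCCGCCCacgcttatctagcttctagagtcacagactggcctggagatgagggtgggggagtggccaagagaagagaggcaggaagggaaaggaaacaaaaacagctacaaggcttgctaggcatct
Ckmt1: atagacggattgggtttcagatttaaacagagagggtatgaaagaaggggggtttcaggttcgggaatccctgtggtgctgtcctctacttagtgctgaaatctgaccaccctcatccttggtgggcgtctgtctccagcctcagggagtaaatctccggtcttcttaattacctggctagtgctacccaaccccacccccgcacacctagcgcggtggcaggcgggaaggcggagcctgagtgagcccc
The windows held 3 GC boxes at Cdk2ap1, 5 at Serpine2, 1 at Scn7a and 0 at Ckmt1. The full 300-base windows, which run 50 bases into the gene, had 73.0% G and C with 43 CpG at Cdk2ap1, 77.7% with 41 CpG at Serpine2, 54.0% with 3 CpG at Scn7a and 58.3% with 10 CpG at Ckmt1.

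The lists held 98067 peaks in CSMN, 134018 in CPN 1 and 158779 in CPN 2, with median folds of 2.86, 3.82 and 3.68 in that order of libraries. A given percentile therefore stood for a lower fold in CSMN. The middle shared region had a fold of 3.61 in CSMN, 6.28 in CPN 1 and 6.43 in CPN 2. The sources used here hold no read totals, and with 1 CSMN library no test between the cell types was possible. Spearman's rho over the 62435 shared regions, a description across regions and not across samples, was 0.813 for CSMN with CPN 1, 0.800 for CSMN with CPN 2 and 0.946 for CPN 1 with CPN 2. The labelled cell types were set beside their markers at gene ends, meaning within 1 kb of either end of a coding gene. Fezf2, Bcl11b, Crym, Pcp4 and Crim1 ranked higher in CSMN than in both CPN libraries there, and Ldb2 and Sox5 did not. Of the CPN markers, Cux1, Lhx2 and Pou3f2 also ranked higher in CSMN, and Cux2 and Plxnd1 did not. Etv1 and Inhba had no shared region at a gene end. Any positive difference between the CSMN percentile and the higher CPN percentile counted as higher here, however small. The difference was 0.239 at Crym, 0.0521 at Pcp4, 0.0644 at Cux1, 0.0396 at Lhx2 and -0.00385 at Cux2. CPN 1 and CPN 2 differed by a median of 0.0511 over all shared regions. The share of all gene-end regions that ranked higher in this sense was not counted, so these ranks are not read for or against the labels.

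Members were regions of middling rank in CSMN and of low rank in CPN. Their CSMN percentile had a lowest value of 0.272, a median of 0.583 and a highest value of 0.9997, against medians of 0.192 in CPN 1 and 0.188 in CPN 2. Both CPN percentiles were under 0.25 in 1629 members, 54.8%, and only 39 members, 1.31%, were above 0.9 in CSMN. In folds the difference was small, with a median of 4.08 in CSMN, 3.82 in CPN 1 and 3.93 in CPN 2. The CSMN fold itself was above both CPN folds in 1356 members, 45.6%, and in 2.58% of all shared regions. Most members therefore ranked higher in CSMN without having the highest fold there. The smaller gap, meaning the CSMN percentile minus the higher CPN percentile, had a median of 0.314 and reached 0.794. The CPN libraries lay close to each other in the members, with a median absolute difference in percentile of 0.0509, against 0.0511 in all shared regions.

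The spread between the CPN libraries is set beside these gaps, and it covers CPN alone. The spread between CSMN libraries is not known with 1 library, so cell type and library cannot be told apart. CPN 1 exceeded CPN 2 by 0.25 or more in 605 shared regions, 0.969%, and CPN 2 exceeded CPN 1 by as much in 596, 0.955%. With only CPN 2 kept beside CSMN, 5308 of the 67838 regions shared by those libraries ranked higher in CSMN by that gap, and with only CPN 1 kept it was 4840 of 66623. In the opposite direction 3583 shared regions, 5.74%, ranked lower in CSMN than in both CPN libraries by the same gap, more than the members. Those regions are used below as a counterpart that the same kind of rule chose. The members nearest the threshold were a region near Myom2 with a smaller gap of 0.250068, one near Kif26a with 0.250076 and one inside Gli2 with 0.250116. Just outside it were a region 241261 bp from Cdh26 with 0.24998, one at Grid1 with 0.24994 and one inside Plekha5 with 0.249924.

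**Figure D1:**
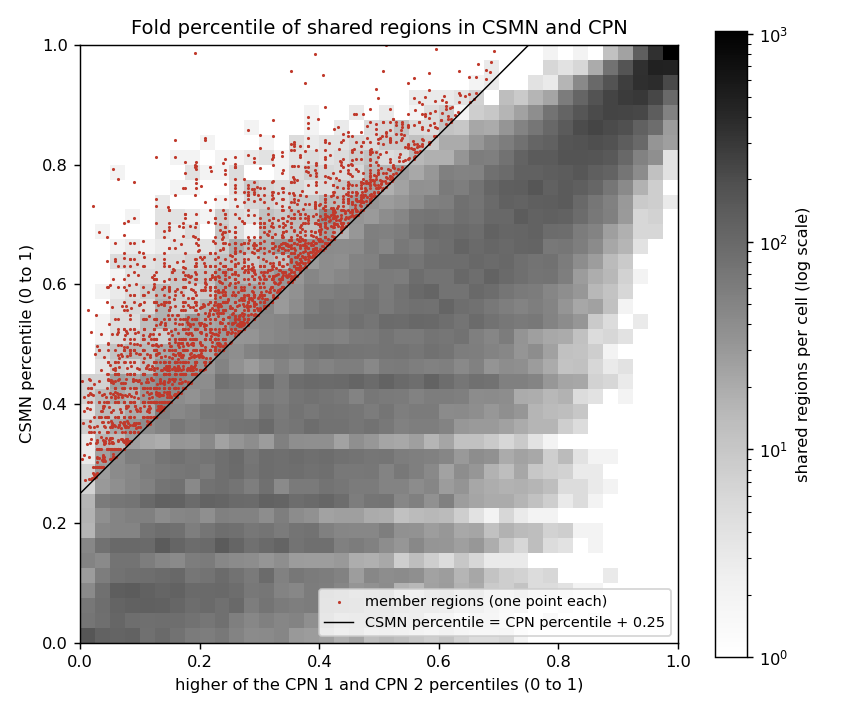
Percentile of each shared region in CSMN (vertical axis, 0 to 1) against the higher of its CPN 1 and CPN 2 percentiles (horizontal axis, 0 to 1), with grey cells for the number of all 62435 shared regions on a log scale, red points for the 2975 members and a line at a difference of 0.25. Members crowd along the line, with a median smaller gap of 0.314, and thin out towards the highest CSMN percentiles.

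All 2975 members had a CSMN −log10 q of at least 5, and 2243 of them, 75.4%, also reached 5 in both CPN libraries. The median −log10 q was 14.7 in CSMN, 10.8 in CPN 1 and 8.61 in CPN 2. Each library contributed a single peak in 87.0% of members and in 86.8% of all shared regions. The merged member regions were short, with a median width of 461 bp, against 537 bp in regions that ranked lower in CSMN and 566 bp in all shared regions. The CSMN peak had a median width of 415 bp in members, against 294 bp for the CPN 1 peak and 215 bp for the CPN 2 peak. It was wider than both CPN peaks in 72.9% of members, against 3.10% of regions that ranked lower in CSMN and 30.7% of all shared regions. The summits lay a median of 35 bp apart between CSMN and CPN 1 in members, as in all shared regions, with an upper quartile of 85 bp and a highest value of 1146 bp in members. Of the 6310 shared regions 122 to 275 bp wide, 7.51% were members, and of the 6241 that were 1192 to 6399 bp wide, 1.67% were.

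Members lay, by their median, farther from gene ends than all shared regions did. Of the 2975 members, 199 had their CSMN summit within 1 kb of a gene end, 6.69% with a Wilson 95% interval of 5.85% to 7.64%. The share was 4.55% in regions that ranked lower in CSMN and 21.2% in all shared regions. A summit inside a gene body was found for 43.0% of members, 50.7% of regions that ranked lower in CSMN and 53.1% of all shared regions. No coding gene lay within 100 kb of 688 members, 23.1% with an interval of 21.6% to 24.7%, against 15.2% of regions that ranked lower and 11.7% of all shared regions. The median distance to a gene end was 38805 bp in members, 36925 bp in regions that ranked lower and 17700.5 bp in all shared regions. Members thus stood nearer to their counterpart than to all shared regions in gene-end share, and stood apart from both in the share far from any gene. These intervals cover counting error only, and neighbouring regions are not independent.

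The rule admits no region whose higher CPN percentile is above 0.75. Of the 13211 shared regions at gene ends, 4757 were at or under it, 36.0%, against 72.3% of all shared regions. The part of this limit in the low gene-end share was not tested.

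**Figure D2:**
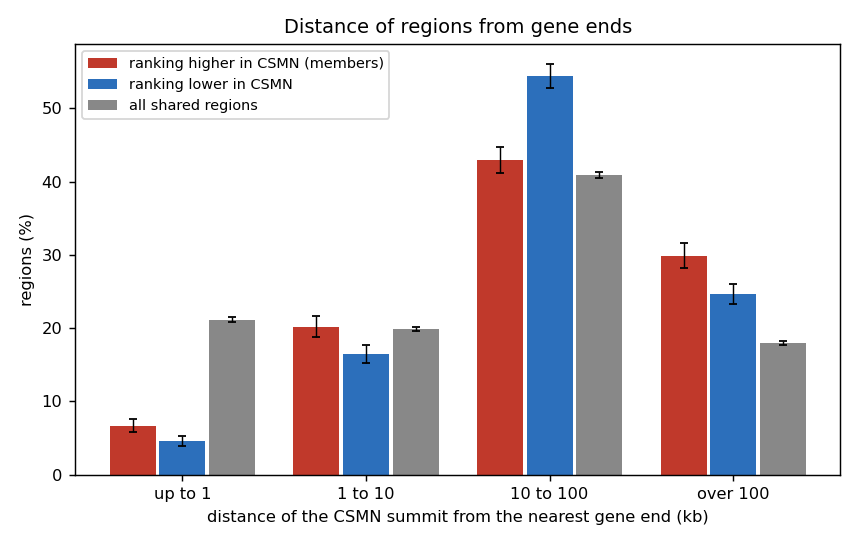
Share of regions (vertical axis, percent) by the distance of the CSMN summit from the nearest gene end (horizontal axis, kb), for members, for regions ranking lower in CSMN and for all shared regions, with Wilson 95% intervals as bars. Members hold 6.69% within 1 kb, against 21.2% of all shared regions, and 29.9% beyond 100 kb, against 17.9%.

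The members that lay in promoters were less rich in CpG than shared promoters in general. The same held for promoters in regions ranking lower in CSMN. The limit on the higher CPN percentile, given above for gene ends, also bound the members here. All shared promoters were not bound by it, and its part in the lower CpG was not tested. The members overlapped 176 promoter windows of 153 genes, which had a median of 54.8% G and C and 9 CpG per 300 bases. Regions ranking lower in CSMN overlapped 150 windows with a median of 54.0% and 8 CpG, and all shared regions overlapped 15599 with a median of 61.7% and 21 CpG. All 32851 windows of the table had a median of 52.7% and 7 CpG. The GC box, searched as GGGCGG on both strands, was in 38.6% of the windows in members (interval 31.8% to 46.0%), 31.3% in regions ranking lower, 64.1% in all shared regions and 35.7% of all windows. The homeodomain core TAATTA, which is its own reverse complement, was in 8.52% of windows in members (5.23% to 13.6%), 9 of the 150 windows in regions ranking lower, 2.55% in all shared regions and 5.29% of all windows. The TATA element TATAAA, on both strands, was in 9.09%, 11.3%, 6.37% and 13.6% of these windows in the same order. These shares describe letters only, and the sets that ranked higher and lower in CSMN had overlapping intervals for the GC box and for TAATTA.

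The 4 promoters printed above are examples, picked by large gaps or after their values were seen. Cdk2ap1 had folds of 5.90 in CSMN, 4.51 in CPN 1 and 3.96 in CPN 2, at percentiles of 0.759, 0.288 and 0.1997. Its region, chr5:124353583-124354853, covered 225 of the 250 printed bases. Serpine2 had folds of 3.98 in CSMN, 3.18 in CPN 1 and 2.93 in CPN 2, at percentiles of 0.565, 0.0977 and 0.0498. Scn7a, with 1 GC box, had folds of 3.64 in CSMN, 2.78 in CPN 1 and 3.36 in CPN 2, at percentiles of 0.508, 0.0440 and 0.104. Ckmt1, with no GC box, had folds of 4.26 in CSMN, 3.75 in CPN 1 and 3.87 in CPN 2, at percentiles of 0.612, 0.183 and 0.183. The region at Ckmt1 covered only 142 of the 250 printed bases, and those at Serpine2 and Scn7a covered all 250. The CSMN percentile was highest at all 4 promoters by the rule. The CSMN fold was highest there too, against 45.6% of all members. The other gene-end members with the largest gaps were at Gm40469, Gm14295, Aurkaip1, Gm13276, Gm5373 and Gbx1. Gbx1, a homeobox factor of spinal and forebrain neurons, had percentiles of 0.478 in CSMN, 0.0390 in CPN 1 and 0.0157 in CPN 2.

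Members were unevenly spread over chromosomes. On chromosome Y, 73 of 236 shared regions were members, 30.9% with an interval of 25.4% to 37.1%, and 1 region ranked lower in CSMN. The 1 Mb window of chromosome Y from 6000001 to 7000000 bp held 135 of these shared regions and 37 of these members. Over the autosomes the share was 4.64%, with a lowest value of 2.57% on chromosome 11 and a highest of 6.14% on chromosome 13, and on chromosome X it was 5.32%. The unplaced contigs held 10 members among 75 shared regions.

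**Figure D3:**
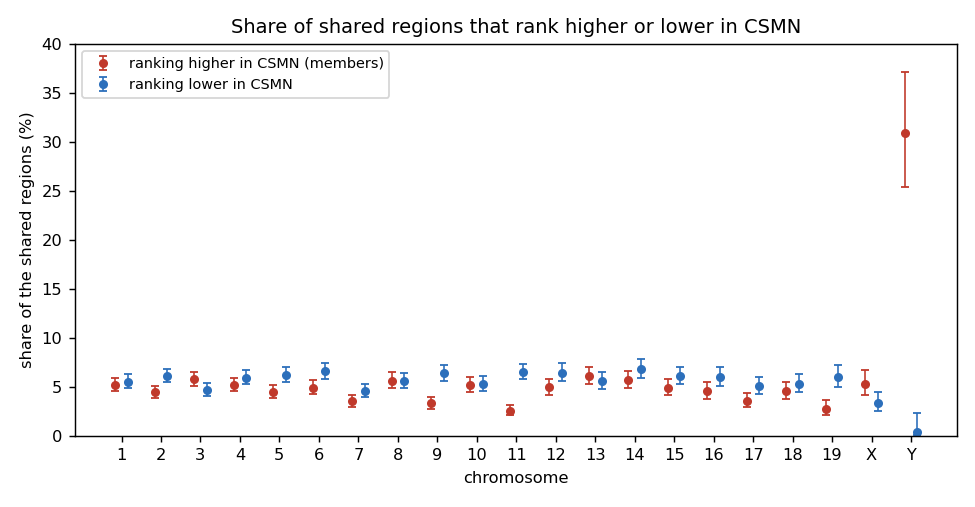
Share of the shared regions on each chromosome (horizontal axis) that rank higher in CSMN (members) or lower in CSMN (vertical axis, percent), with Wilson 95% intervals. Chromosome Y stands apart at 30.9% members, and the autosomes lie between 2.57% and 6.14%.

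Members also sat at gene families whose members are near copies of each other, in part on chromosome Y, so these counts overlap those above. A promoter was called repeated where at least 50% of its 31-base words occurred in the promoter window of another gene elsewhere. Of 582 shared regions assigned to genes with such a promoter, 145 were members, 24.9% with an interval of 21.6% to 28.6%, and 9 ranked lower in CSMN. Where no word was repeated, 1541 of 41437 shared regions were members, 3.72%, and 5.66% ranked lower. Reads from near copies cannot always be placed, and the sources used here do not say how the authors treated such reads. The part of repeated sequence in these ranks was not tested. Without genes of repeated promoters 2830 members remained, 145 fewer than with them.

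The 1 Mb window with the most members held a defensin cluster on chromosome 8, where 43 of 80 shared regions from 20000001 to 21000000 bp were members and none ranked lower. Among the windows with the most members, several with fewer shared regions had a higher share, such as 6 of 7 on chromosome Y. Windows with few members were not ranked by share. Gm15319, at chr8:20337664-20363202 with a fully repeated promoter, had 18 members among 33 shared regions, the most of any gene. Gm40469 in the same window had 9 among 16. The largest gap of all, 0.794, was at chr8:20154103-20154601, with no coding gene within 100 kb, where the fold was 15.5 in CSMN, 3.82 in CPN 1 and 3.65 in CPN 2. Its percentile was 0.986 in CSMN, 0.192 in CPN 1 and 0.149 in CPN 2. The next largest, 0.738, was 861 bp from Gm40469 at chr8:20547851-20548657, with percentiles of 0.793 in CSMN, 0.0166 in CPN 1 and 0.0545 in CPN 2. CSMN ranked far above both CPN libraries at these sites. The promoter of Gm40469 held no repeated word, unlike that of Gm15319.

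Several other genes with many members also had repeated promoters. Speer4d, of a repeated family of spermatogenesis-associated genes on chromosome 5, had 9 members among 20 shared regions, and its neighbours Gm10354 and Gm17019 had 6 each among 17. On chromosome Y, Gm20830 had 8 among 31 and Gm20834 had 6 among 19. The share of repeated words was 60% at Speer4d, 66.7% at Gm20830 and 56.3% at Gm20834. Gm5373 on chromosome 8, with 1.85% of its words repeated, had 5 among 7, and 9530057J20Rik on the same chromosome, with none, had 5 among 11. Sfi1, a centrosome protein gene, had 6 among 21, with percentiles of 0.705 in CSMN, 0.0797 in CPN 1 and 0.0401 in CPN 2 at its widest gap. The longest run of members with no other shared region between them was 9, at chr14:42171413-43676903 among predicted genes from Gm17026 to Gm8165. Most members stood alone, 2385 of them, and 426 stood in 213 pairs.

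Several members of highest CSMN rank were single sites. Gm13276, at chr4:88785605-88786001, had a fold of 26.6 in CSMN, 6.13 in CPN 1 and 6.57 in CPN 2, the highest CSMN fold of any member. A region inside Apool, a mitochondrial protein gene on chromosome X, had folds of 16.4 in CSMN, 8.91 in CPN 1 and 8.18 in CPN 2. One 4198 bp from Gm4307 had folds of 15.4, 4.51 and 5.41 in the same order. Away from those clusters, a region 51433 bp from Ibtk had percentiles of 0.776 in CSMN, 0.0440 in CPN 1 and 0.0638 in CPN 2. A region 17933 bp from Fyb, an adaptor of immune cells, had 0.731 in CSMN, 0.0208 in CPN 1 and 0.00959 in CPN 2. One inside Ddx60, an antiviral helicase gene, had 0.813, 0.0579 and 0.127 in that order. These 3 sites ranked low in both CPN libraries.

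Nr2f1, whose product patterns cortical areas, was 1 of the 8 genes with the largest member share among genes with at least 8 shared regions. Nr2f1 lies at chr13:78188971-78198873 with an unrepeated promoter, and 5 of its 9 shared regions were members and none ranked lower. The region inside the gene, chr13:78194829-78195796, had percentiles of 0.518 in CSMN, 0.0777 in CPN 1 and 0.0396 in CPN 2. The region at chr13:78203104-78204266 had 0.684 in CSMN, 0.326 in CPN 1 and 0.206 in CPN 2. In these regions CSMN ranked in the middle of the shared regions or above, and CPN in the lower part. The other 3 members had CSMN percentiles of 0.739, 0.395 and 0.626, against 0.387, 0.0775 and 0.349 in CPN 1 and 0.463, 0.135 and 0.227 in CPN 2. The 1 Mb window that holds Nr2f1 and Fam172a had 11 members among 34 shared regions, 32.4%, and was chosen after its values were seen. The other 6 windows with at least 10 members lay at the defensin genes of chromosome 8, the Speer4 genes of chromosome 5, a cluster of zinc finger genes on chromosome 4 and on chromosome Y.

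Mef2c, a transcription factor of neuronal maturation and synapse number, had 5 members among 29 shared regions and 1 that ranked lower. Its member with the widest gap, inside the gene at chr13:83608257-83608517, had percentiles of 0.526 in CSMN, 0.0831 in CPN 1 and 0.0430 in CPN 2. A member of higher rank, chr13:83730521-83731602, had 0.777 in CSMN, 0.400 in CPN 1 and 0.417 in CPN 2, and lay 7212 bp from the Mir9-2 hairpin. Sugct, a mitochondrial transferase gene, had 5 members among 8 shared regions, the largest share among the 1627 genes with at least 8. At its top member, chr13:17432327-17432919, the fold was 9.28 in CSMN, 5.44 in CPN 1 and 4.97 in CPN 2. Naaladl2 had 6 members among 14 shared regions, and Usp29, a deubiquitinase gene of an imprinted domain, had 6 among 15. All but 1 member of Sugct and 1 of Naaladl2 lay inside the gene body at these last 3 genes.

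**Figure D4:**
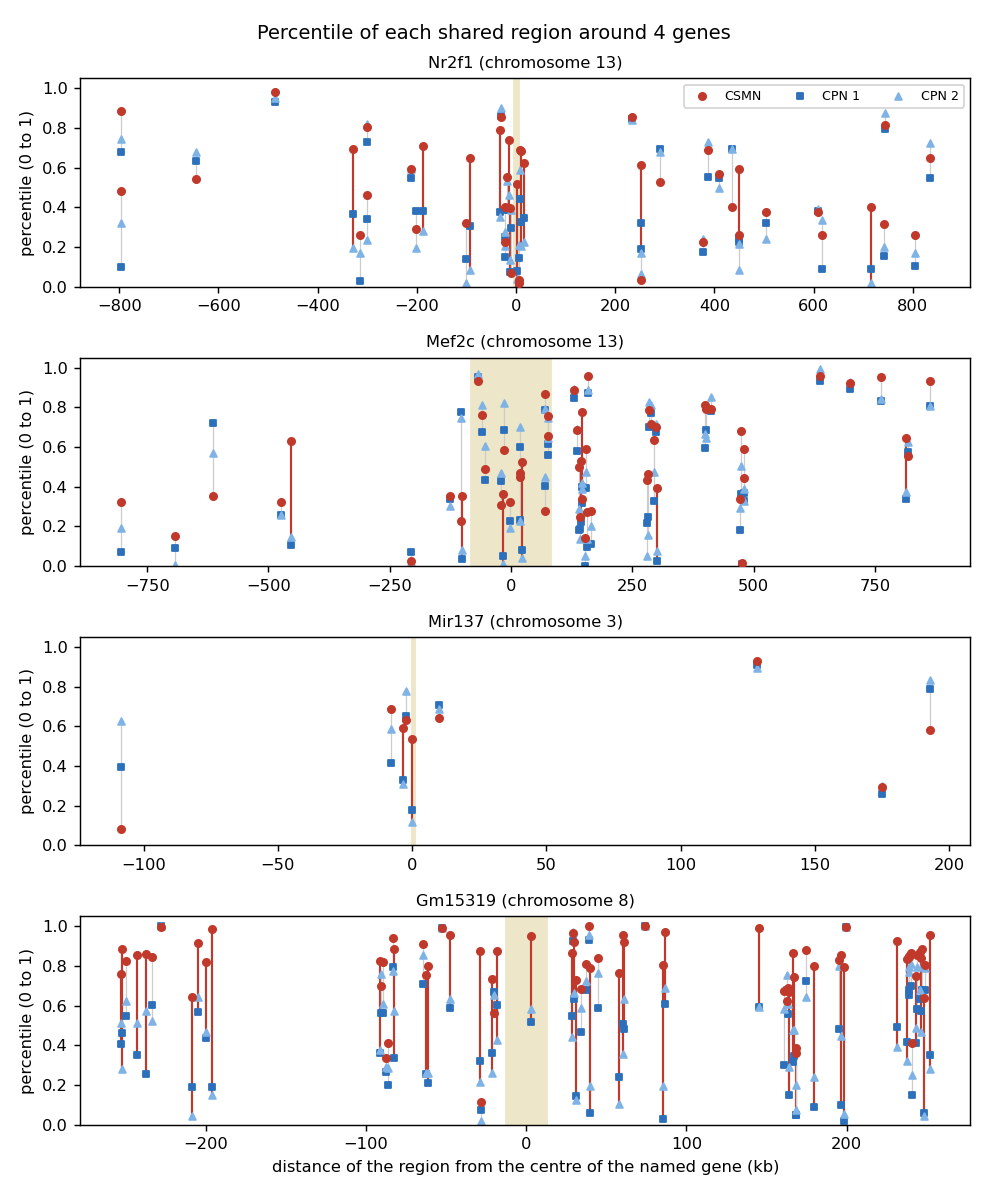
Percentile (vertical axis, 0 to 1) of each shared region in CSMN (red circles), CPN 1 (blue squares) and CPN 2 (light blue triangles) by distance from the centre of Nr2f1, Mef2c, Mir137 and Gm15319 (horizontal axis, kb), with the gene body shaded (at least 1 kb wide) and red lines joining the 3 values of members. The windows hold 12 members among 45 shared regions at Nr2f1, 8 among 56 at Mef2c, 2 among 9 at Mir137 and 40 among 73 at Gm15319.

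The genes of subcerebral and corticospinal identity held members at close to the share of all genes. At the 36 genes of that list, 13 of 304 shared regions were members, 4.28% (interval 2.52% to 7.18%), and 19, 6.25%, ranked lower in CSMN. Over all genes 2287 of 55100 assigned shared regions were members, 4.15%, and 5.51% ranked lower. Kcnn2 (a calcium-activated potassium channel), Npr3 (the clearance receptor of natriuretic peptides) and Klhl14 had 2 members each, and Bhlhe22, which acts in area identity and axon targeting, had 1. At Bhlhe22 the percentiles were 0.783 in CSMN, 0.419 in CPN 1 and 0.491 in CPN 2. Neither Fezf2 nor Bcl11b had a member. The Fezf2 regions had percentiles of 0.615 in CSMN, 0.469 in CPN 1 and 0.520 in CPN 2 at chr14:12337494-12338697, and 0.335, 0.150 and 0.0980 at chr14:12344608-12346993. CSMN was above both CPN libraries at each, by less than the threshold. The Bcl11b region at the gene end had 0.826 in CSMN, 0.715 in CPN 1 and 0.651 in CPN 2, and 8 of its 11 regions ranked lower in CSMN than in at least 1 CPN library. Crym, a thyroid hormone binding protein marking corticospinal neurons, came close with a smaller gap of 0.239.

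Genes of callosal and upper-layer identity held 10 members among 304 shared regions, 3.29% (interval 1.80% to 5.95%), and 27 regions, 8.88%, that ranked lower in CSMN. The lower share had an interval of 6.18% to 12.6%, beside 5.51% over all genes. That interval covers counting error only, and the regions, at 32 genes and from 1 CSMN library, are not independent. The lower share was higher at oligodendrocyte lineage genes, 11.1%, and at astrocyte genes, 8.91%, so it was not particular to callosal genes. Pou3f2, Pou3f3, Inhba, Ptn, Rorb and Dok5 had 1 member each. At Inhba, an activin subunit, the percentiles were 0.530 in CSMN, 0.150 in CPN 1 and 0.183 in CPN 2. Members thus occurred at genes of the callosal list as well as at genes of the corticospinal list.

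Corticothalamic and subplate genes held 8 members among 121 shared regions, 6.61% (interval 3.39% to 12.5%), beside 9 that ranked lower. Foxp2 had 3 among 18 and Tbr1 had 2 among 6, with none at Tbr1 ranking lower. The Tbr1 member 148 bp from a gene end, chr2:61802792-61803245, had percentiles of 0.497 in CSMN, 0.163 in CPN 1 and 0.114 in CPN 2. The second, chr2:61804266-61805869, had 0.501 in CSMN, 0.169 in CPN 1 and 0.0969 in CPN 2. Both Tbr1 regions lay in the middle of the CSMN ranks and low in the CPN ranks. Syt6, a synaptotagmin, and Grik3, a kainate receptor subunit, had 1 member each. Among factors shared by cortical glutamatergic neurons, 14 of 306 regions were members, 4.58%, led by Mef2c and by Nfia, which had 3 members and 5 regions that ranked lower among 52.

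Axon guidance genes held 29 members among 590 shared regions, 4.92% (interval 3.44% to 6.97%), and 38 that ranked lower. Among ligands, Slit1 had 3 members among 18, Slit2 had 2 among 13, and Sema3a had 2 among 17. Among receptors, Robo1, which binds Slit proteins, had 5 among 39, all inside the gene. At its widest gap, chr16:72959018-72959642, Robo1 had percentiles of 0.620 in CSMN, 0.225 in CPN 1 and 0.194 in CPN 2. Sema3a had a member 489 bp from a gene end, with 0.583 in CSMN, 0.225 in CPN 1 and 0.259 in CPN 2. Efnb2, an ephrin ligand, had 2 members and 2 regions that ranked lower. The list as a whole stood near the share of all genes in both directions.

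Genes of dendrite morphology held 14 members among 315 shared regions, 4.44% (interval 2.67% to 7.32%), beside 16 that ranked lower. Fat3, an atypical cadherin that shapes dendrites, had 4 among 26 and none that ranked lower, with CSMN percentiles from 0.324 to 0.570. Map1b, a microtubule-associated protein, had 3 among 19, and Dscam, a self-avoidance receptor, had 2 among 25 with 4 that ranked lower. Ion channel genes held 18 members among 286 shared regions, 6.29% (interval 4.02% to 9.73%), and 14 that ranked lower. Cacna2d1, a calcium channel subunit, had 3 among 20, Scn1a, a sodium channel, had 2 among 4, and Scn2a had 1 among 3. The window of chromosome 2 that spans Scn1a, Scn9a and Scn7a had 7 members among 24 and 1 region that ranked lower, and it was chosen after its values were seen. Mapk8 (JNK1), a kinase of neuronal migration and dendrites, had 1 shared region and no member, with percentiles of 0.929 in CSMN, 0.921 in CPN 1 and 0.883 in CPN 2.

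Marker genes of other cell types were counted the same way, because a sort can carry other cells. Interneuron genes held 10 members among 137 shared regions, 7.30% (interval 4.01% to 12.9%), and 4 that ranked lower, 2.92%. The members were at 7 of the 24 genes, among them 3 at Erbb4, 2 at Adarb2 and 1 each at Dlx2, Reln, Nr2f2 and Sp8. None was at Gad1, Gad2 or Slc32a1, which define GABA neurons, nor at Sst, Pvalb or Vip. The median difference in percentile over the list's shared regions was 0.0331, against 0.00200 over all genes. That median was larger at CTCF and cohesin genes (0.0537), activity-regulated genes (0.0427) and astrocyte genes (0.0354), so it was not particular to interneuron genes. The Dlx2 member, 82842 bp from the gene, had percentiles of 0.578 in CSMN, 0.303 in CPN 1 and 0.253 in CPN 2. With −log10 p ranked in place of fold the interneuron share was 3.65%, against 5.14% of all shared regions. With 1 peak per library it was 3.70% against 4.85%, and at a gap of 0.35 it was 2.19% against 1.59%. The values set against it are of all shared regions, 4.76% as reported, and include regions with no gene within 100 kb. The share over all genes, 4.15% as reported, was not computed under these alternatives. The part of interneurons in these ranks was not tested.

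Glial and vessel genes were counted beside the 4.15% of members and the 5.51% of regions ranking lower over all genes. Astrocyte genes held 2 members among 101 shared regions, 1.98% (interval 0.545% to 6.93%), at Aqp4 and Slc1a3, and 9 regions that ranked lower, 8.91%. Oligodendrocyte lineage genes held 2 among 54, 3.70% (interval 1.02% to 12.5%), at Olig2 and Nkx2-2. Another 6 of their regions ranked lower, 11.1% (interval 5.19% to 22.2%), the highest lower share of the 16 lists. The lower share of astrocyte genes had an interval of 4.76% to 16.1%, and both intervals reached the 5.51%. Microglia genes had 0 of 25, which allows a share of up to 12% by a limit of 3 counts and up to 13.3% by the Wilson interval. Endothelial and mural genes had 5 of 95, 5.26%, of which 2 were at Tek, a receptor of vessel growth. Progenitor genes had 7 among 181, of which 3 were at Gli3, a Hedgehog pathway factor. Activity-regulated genes had 2 among 101, at Egr4 and Dusp6, ribosomal and housekeeping genes had 0 of 55, which allows up to 5.45% by the limit of 3 counts and 6.53% by the Wilson interval, and CTCF and cohesin genes had 1 of 25, at Stag2.

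**Figure D5:**
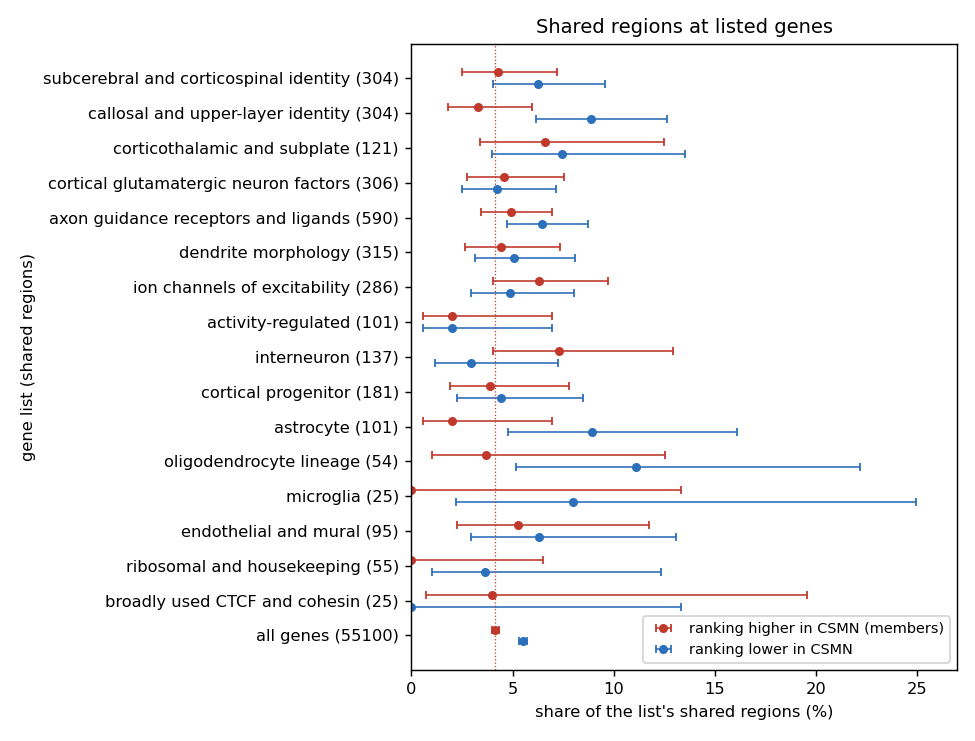
Share of the shared regions assigned to each gene list (vertical axis, with the number of shared regions) that rank higher in CSMN (members) or lower in CSMN (horizontal axis, percent), with Wilson 95% intervals and a dotted line at the 4.15% of members over all genes. Interneuron genes have the highest member share here at 7.30%, and every list's member interval reaches the dotted line. With −log10 p ranked in place of fold the interneuron share was 3.65%, against 5.14% of all shared regions. Unlike the dotted line, the 5.14% includes regions assigned to no gene.

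Regions near microRNA hairpins were counted beside the 4.76% of members and the 5.74% of regions ranking lower over all shared regions. Within 10 kb of the 1005 hairpins there were 963 shared regions, of which 33 were members, 3.43% (interval 2.45% to 4.77%), and 34, 3.53%, ranked lower in CSMN. The interval of the member share reached the 4.76%. Members overlapped the hairpins of Mir137, Mir6387, Mir1894 and Gm23450, and others lay 598 bp from Mir1897, 1076 bp from Gm51269 and 1237 bp from Mir5126. Of these, Mir137 controls neuronal maturation and dendrites and lies at chr3:118433857-118433929. Its overlapping member, chr3:118433419-118434022, had folds of 3.80 in CSMN, 3.71 in CPN 1 and 3.44 in CPN 2, at percentiles of 0.536, 0.179 and 0.116. A second member 3085 bp from the hairpin had percentiles of 0.591 in CSMN, 0.330 in CPN 1 and 0.309 in CPN 2. So the sequence of miR-137 printed above lies within a merged region that held a peak of all 3 libraries. Whether the peak of each library covered the hairpin itself was not checked.

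The member near Mir218-1, a microRNA of motor neurons inside the Slit2 gene, lay 3765 bp away with percentiles of 0.449 in CSMN, 0.158 in CPN 1 and 0.0638 in CPN 2. Mir9-2, of a microRNA family active in neurogenesis, had 2 members 7212 and 8880 bp away, both also assigned to Mef2c. Mir129-2 had a member 3770 bp away with 0.726 in CSMN, 0.317 in CPN 1 and 0.372 in CPN 2. Mir99a and Mirlet7c-1, which share a locus, had the same member 5611 and 6332 bp away, with 0.476 in CSMN, 0.119 in CPN 1 and 0.181 in CPN 2. Near the Mir193b and Mir365-1 hairpins, 3 shared regions lay within 10 kb and none was a member. The region 836 bp from Mir193b, chr16:13447412-13448687, had percentiles of 0.369 in CSMN, 0.170 in CPN 1 and 0.209 in CPN 2. The region 2617 bp from Mir193b had 0.442 in CSMN, 0.278 in CPN 1 and 0.0982 in CPN 2, and the third ranked at 0.0192, 0.0383 and 0.0220 in the same order. CSMN was thus highest at 2 of the 3 regions of this cluster, with smaller gaps of 0.164 and 0.160.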

How the data were processed

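Peak lists of 1 CSMN and 2 CPN libraries were used, with groups taken from the sample labels. The build is mm10, per the submitters' processing notes, which also list MACS2 2.2.7.1, BWA 0.7.17 and bedtools 2.29.2 without the role of each. Read filters, the shift for the transposase and the treatment of duplicates are not stated in the sources used here. The deposited lists give each peak's fold (a ratio), −log10 p and −log10 q, which are the authors' values per library. The deposited score was checked to be 10 times the −log10 q, cut to a whole number, in over 99.9% of peaks. The lowest −log10 q was 1.30 in CSMN, 1.31 in CPN 1 and 1.31 in CPN 2.

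Peaks were merged with pandas 2.3.3 and numpy 2.4.6 in Python 3.11.15, and the 204313 regions and 4000 summit distances differed in 0 cases from bedtools 2.31.1. The steps were tested on simulated data. Tied folds shared their mean percentile. Regions were assigned to the nearest of 21783 coding genes, from a RefSeq table of GRCm38.p6 (mm10), within 100 kb of the strongest CSMN summit, and 88.3% of shared regions were assigned. The table holds gene ends without exons. Shares carry Wilson 95% intervals, which cover counting error only. Of 405 gene list entries, 402 were found under their symbol and 3 under an older one, for 386 genes in 16 lists. The members and lists were chosen with earlier results of these data known.

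The genes named were the 12 with the most members, the 12 members with the largest smaller gaps, the 8 of highest CSMN percentile, the 8 genes of largest member share among those with at least 8 shared regions, the 8 gene-end members with the largest gaps, up to 4 genes per list, the regions next to the threshold, and Fezf2, Bcl11b, Mapk8, Mir193b and Mir365-1. Some genes under this rule are not reported here, and list genes beyond the first 4 were named after their values were seen. The genome sequence was not used here, so sequence is given for promoters and microRNAs alone. Alternatives to the overlap, filter, rank, gap and libraries used are given in the closing section.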

Additional observations from a re-analysis of the deposited data

How the results depend on the processing

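The number of members was 2975 at a gap of 0.25, 4829 at 0.20 and 991 at 0.35. Leaving out a CPN library, so that CSMN had to exceed only the other, gave from 4840 to 5308, and 2717 members were kept without CPN 1 and 2727 without CPN 2. Of the 2975 members, 2553 were kept with −log10 p ranked in place of fold, 2149 with lists of equal length and 1715 with peaks of a −log10 q of at least 5 alone. The share at gene ends, 6.69% as reported, was 8.58% with that q filter, 8.35% with lists of equal length, 5.46% with −log10 p, 8.22% at a gap of 0.20, 4.74% at 0.35, 3.80% with gene ends taken within 500 bp and 6.63% to 8.70% without a CPN library. The share inside genes, 43.0% as reported, was 39.4% with the q filter, 38.8% with −log10 p and 37.1% at a gap of 0.35. The median width, 461 bp as reported, was 498 bp with the q filter, 477 bp with equal lists, 448 bp with −log10 p, 449 bp at a gap of 0.35, 423 bp with 1 peak per library and from 417 to 418 bp without a CPN library. The cause of these moves was not tested, beyond that a lower or higher gap admits more or fewer regions by construction. Gm15319 had 18 members as reported, 11 at a gap of 0.35, and by construction 0 without repeated promoters or dense windows. The shares of all shared regions that follow include regions assigned to no gene, and the like value as reported was 4.76%. With −log10 p ranked, 5.14% of all shared regions were members. The share was then 3.65% at interneuron genes, 2.61% at glutamatergic genes and 0% at oligodendrocyte lineage genes. With the q filter it was 2.74% at glutamatergic genes, against 4.97% of all shared regions. With 1 peak per library it was 3.70% at interneuron genes, against 4.85% of all shared regions. Over 17 alternatives, 207 of 240 shares of the gene lists stayed within their intervals and 33 did not.

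Alternatives added after the data were seen, with regions ranked anew, changed the number of members little. It was 2956 and 2994 with tied folds given the lowest and highest rank, and 2932 without chromosomes Y and M and unplaced contigs. Without genes of repeated promoters it was 2830, and without the 7 densest windows 2825. These last counts follow from the removal alone, because the regions were not ranked anew. No paired analysis was possible because the cell types share only 1 replicate number and the CSMN group has 1 library. Read depth is not known, so a low CPN rank cannot be read as closed chromatin.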
